A study of Mus musculus with 8 samples.

Results

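The immediate early and NR4A genes described here are 10 genes of the deposited count table, picked by symbol after Ensembl identifiers were matched to mouse gene names, out of 22165 genes in all. They are the nuclear receptor genes Nr4a1, Nr4a2 and Nr4a3, the zinc-finger genes Egr1 and Egr2, the AP-1 genes Fos, Fosb, Jun and Junb, and Ier2. All 10 passed the filter on low counts, as did 11079 genes in all, although Nr4a3 had at most 32 counts in any library. All samples were macrophages derived from bone marrow of C57BL/6 mice by 7 days of culture in M-CSF, a factor that drives precursors to become macrophages. The groups were Nrf2 knockout cells given 250 µM dimethyl itaconate (DI) for 12 h (KO DI), wild-type cells given the same (WT DI), untreated knockout cells (KO untreated) and untreated wild-type cells (WT untreated), with 2 libraries each. NRF2, encoded by Nfe2l2, is the transcription factor that drives antioxidant genes, and DI is a membrane-permeable electrophile derived from itaconate. The knockout mice, labelled Nrf2-/-, came from a commercial breeder, the labels name no vehicle for the untreated cells, and the single time is hours after DI was added.

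Immediate early genes are transcribed within minutes of a stimulus because the factors that switch them on, chiefly SRF with its ternary complex partners and CREB, are already present in the cell. FOS and JUN proteins pair into the AP-1 factor, EGR proteins bind GC-rich sites, and NR4A proteins are nuclear receptors that act without a known natural ligand. In macrophages these genes respond to growth factors, adhesion and inflammatory stimuli, and their transcripts are short-lived.

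Total counts ran from 5554288 to 15680671 per library, so that 1 count equalled 0.0647 to 0.175 CPM (counts scaled to library size, with TMM factors). Nfe2l2 averaged 77.9 ± 14.4 CPM in KO DI, 357 ± 83.3 CPM in WT DI, 46.6 ± 9.0 CPM in KO untreated and 342 ± 158 CPM in WT untreated cells (SD, n = 2 each). Reads of the gene thus remained in the knockout libraries, and the labels do not say which stretch the allele removes. Whether both libraries of a group stem from different mice or dishes is not stated, and p-values therefore reflect only the variation among these libraries, possibly technical. All 9 macrophage markers had counts in every library, and their summed level was 3923 to 4482 CPM in KO DI, 4647 to 5053 CPM in WT DI, 5904 to 6072 CPM in KO untreated and 4917 to 5263 CPM in WT untreated libraries. Of 7 stromal markers, 6 had counts in every library and Lum was at 0, and their sum was 44.8 to 45.9, 108 to 119, 47.9 to 50.2 and 90.9 to 132 CPM in the same order of groups. The 8 neutrophil markers summed to 223 to 349 CPM over all libraries, with Ly6g at 0 to 0.745 CPM. Markers of dendritic cells summed to at most 13.4 CPM, those of lymphocytes to at most 2.52, of mast cells and basophils to at most 0.961 and of erythroid cells to at most 0.699 CPM. The WT DI libraries stood apart from the rest on the first principal component of log2 CPM, at 65.6 and 62.2 against -33.9 to -8.44 for the other libraries. In WT DI the 10 most counted genes took 13.3% and 13.2% of counts, against 7.68% to 9.32% elsewhere, and mitochondrial transcripts took 1.59% and 2.1%, against 1.02% to 1.54% elsewhere. The part of these differences in the WT DI results was not tested. Changes below are log2 fold changes ± standard error, and a gene is called when its edgeR adjusted p (quasi-likelihood test, Benjamini-Hochberg over 11079 genes) is under 0.05. In bulk RNA, fewer cells that express a gene and less RNA of it per cell cannot be told apart.

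DI lowered Nr4a1 and raised Egr2 in both genotypes, and it lowered Fosb in wild-type cells, where the knockout gave a different response. In wild-type cells 2 of the 10 genes fell (Nr4a1 and Fosb) and 1 rose (Egr2), where 8.68% of all tested genes fell and 6.51% rose. In knockout cells 1 fell (Nr4a1) and 1 rose (Egr2), where 4.0% of all tested genes fell and 4.49% rose, 8.48% in all. The median log2 change of the 10 genes was 0.39 in knockout and -0.46 in wild-type cells, beside 0.00456 and -0.017 for all tested genes. Counting genes whose DI libraries all lay on one side of the untreated ones, 3 members were higher (Egr1, Egr2 and Fosb) and 2 lower (Junb and Nr4a1) in knockout cells, where 29.1% and 29.3% of all tested genes were. In wild-type cells 1 member was higher (Egr2) and 5 were lower (Fos, Fosb, Ier2, Nr4a1 and Nr4a3), where 28.6% and 29.3% of all tested genes were. With so few genes these counts describe the members and are no test of the group.

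**Figure D1:**
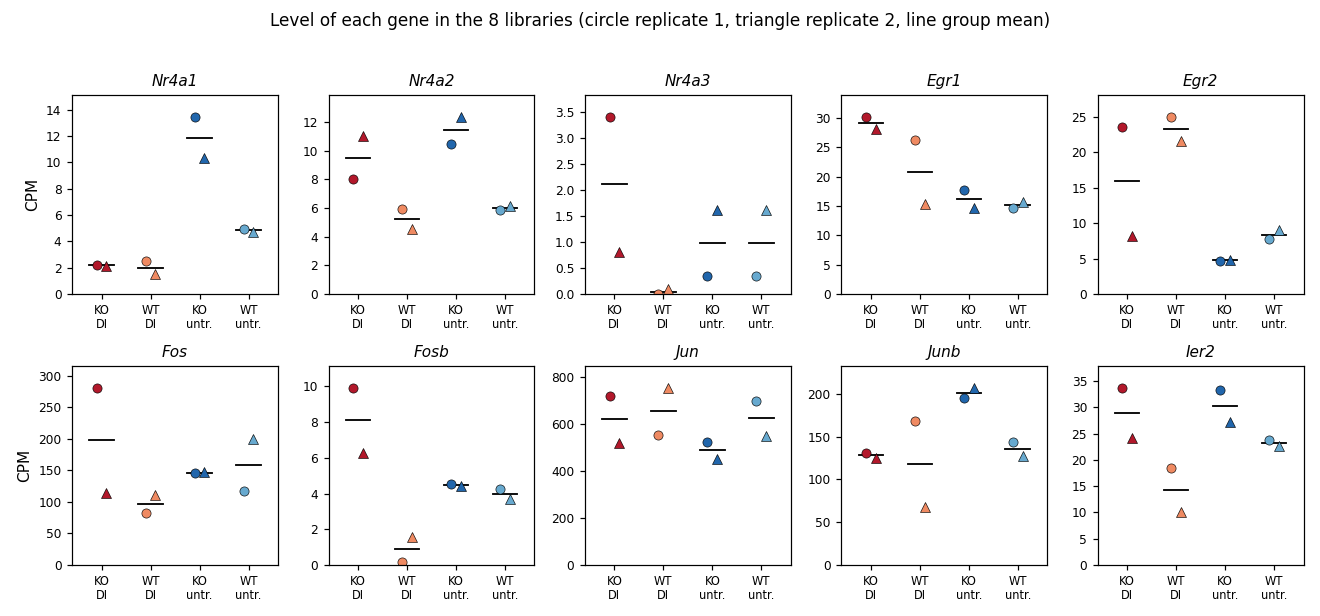
CPM (vertical axis, linear from 0, a scale of its own per gene) of the 10 genes in the 8 libraries, with KO DI, WT DI, KO untreated and WT untreated from left to right, circles for replicate 1, triangles for replicate 2 and a line at each group mean. Nr4a1 lies between 1.49 and 2.51 CPM in the 4 DI libraries, below its 4 untreated libraries at 4.72 to 13.5 CPM, and the KO DI replicates stand far apart for Egr2, Fos and Nr4a3.

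Nr4a1, also called Nur77, encodes a nuclear receptor that restrains inflammatory gene expression in macrophages. It lies on chromosome 15 at 101254269 to 101274795 of GRCm38, the assembly called mm10. It had 2.24 and 2.13 CPM in KO DI libraries, against 13.5 and 10.3 CPM in KO untreated libraries. The corresponding counts were 21 and 21, against 77 and 95. KO DI libraries lay far below KO untreated libraries with no overlap, and the fall of -2.43 ± 0.35 had edgeR adjusted p = 0.00327. That call held under all 16 alternatives tried, with log2 changes of -2.62 to -2.23. In wild-type cells Nr4a1 had 2.51 and 1.49 CPM in WT DI libraries, against 4.98 and 4.72 CPM in WT untreated libraries. Again the groups did not overlap, and the fall was -1.32 ± 0.37 with edgeR adjusted p = 0.0304. This call was lost without WT DI replicate 2 (log2 change -0.92, edgeR adjusted p = 0.21), without WT untreated replicates 1 and 2 (0.0893 and 0.0972), without KO untreated replicate 1 (0.0538), and in a fit of the wild-type libraries alone (0.0633). Nr4a1 was higher in KO untreated than in WT untreated libraries, but this difference of 1.28 ± 0.32 did not pass (edgeR adjusted p = 0.107). It passed only with no filter on low counts (0.0153). The difference between the DI responses of the genotypes was -1.11 ± 0.51 with edgeR adjusted p = 0.193 and a 95% interval of -2.22 to 0.0085. In order of level WT DI was lowest, then KO DI, which overlapped it, then WT untreated and KO untreated, each set apart from its neighbours.

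Nr4a2 and Nr4a3 encode the other two receptors of the family, which bind the same DNA element as Nr4a1's product. Nr4a2, on chromosome 2 at 57106830 to 57124003, had 8.0 and 11 CPM in KO DI and 5.97 and 4.57 CPM in WT DI libraries. Its untreated levels were 10.5 and 12.4 CPM in KO and 5.86 and 6.15 CPM in WT libraries. DI levels overlapped untreated ones in knockout cells (log2 change -0.27 ± 0.28) and in wild-type cells (-0.21 ± 0.30), whereas all 4 knockout libraries lay above all 4 wild-type libraries. The knockout minus wild-type difference was 0.87 ± 0.30 with DI (edgeR adjusted p = 0.0553) and 0.93 ± 0.29 untreated (0.213), neither of which passed.

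Nr4a3 (chromosome 4, 48045153 to 48086447) had 32 and 8 counts in KO DI libraries, 0 and 1 in WT DI libraries, 2 and 15 in KO untreated libraries and 4 and 25 in WT untreated libraries. The WT DI libraries lay below all others, but the 3 counts that a 0 in WT DI replicate 1 allows equal 0.471 CPM. That exceeds the 0.35 CPM of replicate 1 in both KO untreated and WT untreated cells. WT DI replicate 1 can therefore not be placed below those libraries with certainty. Over both libraries its level in KO DI was 35.5 times that in WT DI, with a 95% counting interval of 6.03 to 1439 that rests on 1 count in WT DI. The edgeR adjusted p was 0.0279. Nr4a3 failed the count filter in a fit of the DI libraries alone and at a minimum count of 50, so the call could not be tried there. The call was lost without KO DI replicate 1 (edgeR adjusted p = 0.204) and without WT DI replicates 1 and 2 (0.124 and 0.116). Against WT untreated cells the WT DI level was 0.0543 times as high (counting interval 0.00133 to 0.327), with edgeR adjusted p = 0.101, which did not pass. Counting intervals cover counting error only. In knockout cells DI libraries overlapped untreated ones, and the change was 0.96 ± 0.88.

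The upstream sequences of Nr4a1, called with DI in both genotypes, and of Nr4a3, nearly at 0 in WT DI, are shown so that these relatives can be compared. Windows of 300 bases, from 250 before to 50 after an annotated start, came from a RefSeq promoter table on GRCm38.p6, in which 8 of the 10 genes were matched. Egr1 and Ier2 are not shown here. Capitals mark matches, on either strand, to the CRE core TGACG, the full CRE TGACGTCA, the AP-1 motif TGANTCA, the antioxidant response element TGACNNNGC, the EGR motif GCGNGGGCG, the NR4A element AAAGGTCA or the CArG box of SRF. Matches to different motifs can overlap.
Nr4a1, chr15:101266596-101266895, plus strand: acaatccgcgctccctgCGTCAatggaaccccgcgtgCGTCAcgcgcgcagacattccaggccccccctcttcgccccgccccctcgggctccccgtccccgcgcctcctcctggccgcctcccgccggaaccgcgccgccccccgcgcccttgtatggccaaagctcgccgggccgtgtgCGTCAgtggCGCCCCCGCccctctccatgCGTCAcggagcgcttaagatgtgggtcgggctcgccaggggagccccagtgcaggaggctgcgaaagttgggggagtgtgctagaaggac
Nr4a3, chr4:48045055-48045354, plus strand: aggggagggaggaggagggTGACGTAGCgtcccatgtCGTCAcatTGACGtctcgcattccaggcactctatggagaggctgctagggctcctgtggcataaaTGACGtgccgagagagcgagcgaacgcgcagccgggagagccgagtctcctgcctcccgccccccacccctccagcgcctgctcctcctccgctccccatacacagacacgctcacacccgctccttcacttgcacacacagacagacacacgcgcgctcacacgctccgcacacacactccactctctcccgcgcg
The window of Nr4a1 held 4 CRE cores and 1 EGR motif, that of Nr4a2 held 4 CRE cores, 1 EGR motif and 1 antioxidant element, and that of Nr4a3 held 4 CRE cores, 1 of which overlaps its single antioxidant element. Of 32851 windows in the table, 20.8% had at least 1 CRE core and 0.231% had 4 or more, 5.55% had the EGR motif and 12.4% the antioxidant element. A set of 4 CRE cores was thus common to Nr4a1, which fell with DI in both genotypes, and to Nr4a2, which was not called in either. A match describes letters and is no evidence of binding.

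Egr2 was higher with DI in both genotypes. EGR2, also called KROX20, is a zinc-finger factor that takes part in macrophage differentiation and in responses to inflammatory stimuli, and its gene lies on chromosome 10 at 67535475 to 67542188. Egr2 had 25 and 21.5 CPM in WT DI libraries, against 7.69 and 9.06 CPM in WT untreated libraries. The WT DI libraries were close to each other and well above both WT untreated libraries, and the rise was 1.47 ± 0.38 with edgeR adjusted p = 0.023. It had 23.6 and 8.21 CPM in KO DI libraries, against 4.72 and 4.78 CPM in KO untreated libraries. KO DI replicate 2 lay much nearer to the untreated libraries than replicate 1, and the rise was 1.74 ± 0.42 with edgeR adjusted p = 0.0264. Without KO DI replicate 1 it was 0.79 with edgeR adjusted p = 0.226, and the call was also lost without KO untreated replicates 1 and 2 (0.156 and 0.176) and in a fit of the knockout libraries alone (0.0532). The wild-type call was lost without WT DI replicates 1 and 2 (0.0991 and 0.0666), without WT untreated replicates 1 and 2 (0.118 and 0.100), and when the trend of log2 changes with the A content of coding sequences, described with Fosb, was removed (1.29, edgeR adjusted p = 0.0525). The difference between the DI responses was 0.27 ± 0.56 with a 95% interval of -0.95 to 1.49.

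The table gave 5 start windows for Egr2, of which 3 overlapping ones tied for the most matches. The first of these is shown because it holds motifs of known activators of immediate early genes.
Egr2, chr10:67537619-67537918, plus strand: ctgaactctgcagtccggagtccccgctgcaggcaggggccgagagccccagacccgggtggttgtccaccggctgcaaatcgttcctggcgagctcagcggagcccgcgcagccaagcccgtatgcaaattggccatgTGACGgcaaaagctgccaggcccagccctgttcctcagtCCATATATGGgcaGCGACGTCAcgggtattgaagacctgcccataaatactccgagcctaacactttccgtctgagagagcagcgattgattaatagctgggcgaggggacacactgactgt
It held a CArG box, 2 CRE cores and 1 antioxidant element, which overlaps 1 of the cores. The window at the start of the annotated gene, chr10:67535249-67535548, held no match to any of these motifs, and 1 further window held a CArG box alone. A CArG box was found in 1.63% of all windows, a share that does not allow for the choice among 5. The CArG box is the site of SRF, a chief activator of immediate early genes.

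Egr1 encodes the founding EGR factor, which growth factors and stress kinases induce, and lies on chromosome 18 at 34859823 to 34864984. It had 30.2 and 28.2 CPM in KO DI libraries, against 17.7 and 14.7 CPM in KO untreated libraries. The groups did not overlap, but the difference of 0.86 ± 0.27 did not pass over all genes (edgeR adjusted p = 0.0706). It passed in a fit of the knockout libraries alone (0.0459), without either WT DI library (0.0385 and 0.0375) and with no filter on low counts (0.021). In wild-type cells Egr1 had 26.2 and 15.4 CPM in WT DI libraries, against 14.6 and 15.7 CPM in WT untreated libraries, so that WT DI replicate 2 lay among the untreated values. That difference was 0.45 ± 0.27 with edgeR adjusted p = 0.283.

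Fosb responded differently to DI in the 2 genotypes, higher in knockout than in wild-type cells. FOSB is an AP-1 subunit that pairs with JUN proteins, and its gene lies on chromosome 7 at 19302696 to 19310051. It had 9.93 and 6.28 CPM in KO DI libraries, against 4.55 and 4.45 CPM in KO untreated libraries. Both KO DI libraries were above both KO untreated ones, but the difference of 0.85 ± 0.46 did not pass (edgeR adjusted p = 0.269). In wild-type cells it had 0.157 and 1.58 CPM in WT DI libraries, against 4.28 and 3.69 CPM in WT untreated libraries. WT DI replicate 1 held a single count and replicate 2 held 17, both well below the untreated libraries at 49 and 57 counts. The fall was -1.98 ± 0.56 with edgeR adjusted p = 0.0328. KO DI cells were above WT DI cells by 3.01 ± 0.55 (edgeR adjusted p = 0.00268), a call that held under all 16 alternatives with log2 values of 2.32 to 5.56. The test of the difference between the DI responses gave 2.83 ± 0.73 in favour of knockout cells, with edgeR adjusted p = 0.0357 and a 95% interval of 1.25 to 4.41. This was the single gene of the 10 called in that test, in which 4.96% of all tested genes were higher and 2.59% lower in knockout, 7.55% in all. At an unadjusted p under 0.05, 3 of the 10 differed (Nr4a3, Fos and Fosb), where 26.4% of all tested genes did.

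The call of the Fosb difference in response was lost without KO DI replicate 1 (edgeR adjusted p = 0.115), WT DI replicate 1 (0.0678), KO untreated replicates 1 and 2 (0.111 and 0.117) or WT untreated replicates 1 and 2 (0.0744 and 0.0848). The wild-type fall lost its call without WT DI replicate 1 (log2 change -1.28, edgeR adjusted p = 0.125), WT untreated replicates 1 and 2 (0.103 and 0.0932) or KO untreated replicate 1 (0.0542), and in a fit of the wild-type libraries alone (0.0612). The coding sequences of Fosb and Fos have up to 11 A in 15 consecutive bases, where the oligo-dT primer could anneal. Whether it did so was not tested. The 2118 tested genes of that class had a median log2 change of 0.18 in knockout and -0.23 in wild-type cells, and a median difference between the responses of 0.44. Egr2, Nr4a1 and Junb have a maximum of 8 A. The 1477 tested genes of that class had medians of the other sign, -0.17 in knockout, 0.18 in wild type and -0.34 for the difference. With that trend removed the Fosb difference was 2.42 (edgeR adjusted p = 0.0723) and the wild-type fall -1.76 (0.0552). The trend was estimated from these same libraries, so its removal can also take out part of a response to DI.

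**Figure D2:**
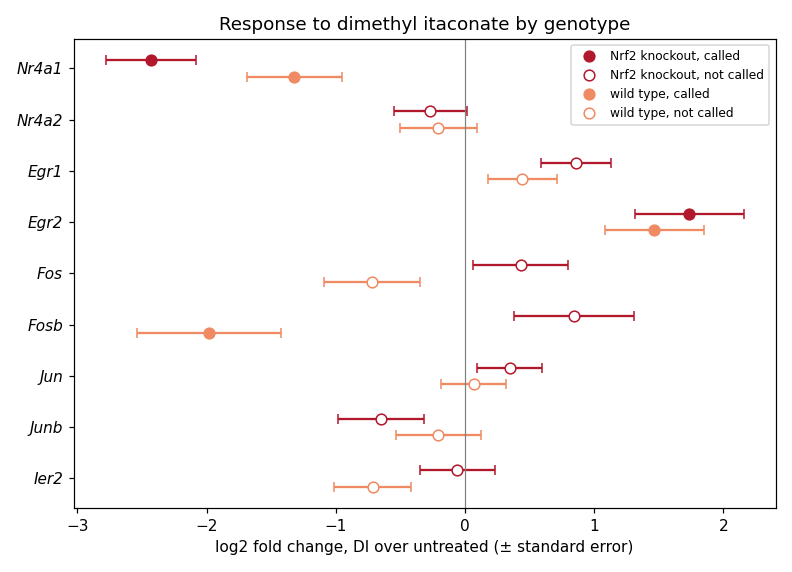
Log2 fold change of DI over untreated cells (horizontal axis, bars for the standard error) for 9 genes, with knockout above wild type in each row and filled points for calls at edgeR adjusted p under 0.05. Nr4a1 is left of 0 and Egr2 right of 0 in both genotypes, and Fosb is at 0.85 in knockout and -1.98 in wild type. Nr4a3 is left out because WT DI holds 1 count.

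Fos encodes the main FOS partner in AP-1 and lies on chromosome 12 at 85473890 to 85477273. It had 281 and 114 CPM in KO DI libraries and 81.7 and 110 CPM in WT DI libraries. Its untreated levels were 146 and 147 CPM in KO and 118 and 199 CPM in WT libraries. KO DI replicate 1 was the highest of all 8 libraries and KO DI replicate 2 lay below both KO untreated libraries, so that DI had no common direction there (0.43 ± 0.37). WT DI libraries lay below the WT untreated ones, but the difference of -0.72 ± 0.37 did not pass (edgeR adjusted p = 0.211). KO DI exceeded WT DI by 1.04 ± 0.38 with edgeR adjusted p = 0.0671. That difference passed in DESeq2 (adjusted p = 0.0261), with no filter on low counts (edgeR adjusted p = 0.00133) and without KO DI replicate 2 (0.00858). The upstream windows of the FOS genes are shown since Fosb was called and Fos was not.
Fosb, chr7:19309996-19310295, minus strand: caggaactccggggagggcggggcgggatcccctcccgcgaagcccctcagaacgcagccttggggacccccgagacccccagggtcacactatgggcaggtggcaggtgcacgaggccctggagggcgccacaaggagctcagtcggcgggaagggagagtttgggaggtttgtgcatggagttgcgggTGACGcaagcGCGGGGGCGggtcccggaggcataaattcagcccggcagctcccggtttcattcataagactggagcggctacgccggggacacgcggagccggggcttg
Fos, chr12:85473640-85473939, plus strand: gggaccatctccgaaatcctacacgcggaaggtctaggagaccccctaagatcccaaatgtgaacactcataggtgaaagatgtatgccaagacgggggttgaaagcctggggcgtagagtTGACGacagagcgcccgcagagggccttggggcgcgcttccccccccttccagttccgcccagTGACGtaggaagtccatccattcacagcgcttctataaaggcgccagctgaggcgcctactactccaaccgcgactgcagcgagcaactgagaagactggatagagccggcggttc
The Fosb window held 1 CRE core and 1 EGR motif, and that of Fos held 2 CRE cores and no EGR motif.

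Jun and Junb encode the JUN partners of FOS proteins. JUN activates growth and stress genes, and JUNB replaces it in some dimers. Jun, on chromosome 4 at 95049034 to 95052222, had 719 and 520 CPM in KO DI and 554 and 753 CPM in WT DI libraries, beside 525 and 450 CPM in KO untreated and 699 and 549 CPM in WT untreated libraries. Each group overlapped its neighbours in level. Jun was not called in any of the 5 comparisons, and the 95% interval of the DI effect was -0.20 to 0.89 in knockout and -0.48 to 0.61 in wild-type cells. Junb, on chromosome 8 at 84974484 to 84978718, had 131 and 126 CPM in KO DI libraries, against 195 and 207 CPM in KO untreated libraries. These groups did not overlap, but the difference of -0.65 ± 0.33 did not pass (edgeR adjusted p = 0.236). In wild-type cells it had 168 and 67.5 CPM in WT DI libraries, against 144 and 127 CPM in WT untreated libraries, so that the WT DI libraries lay on either side of the untreated ones. Without WT DI replicate 1 Junb fell by 0.97 in wild-type cells (edgeR adjusted p = 0.039). Junb shares 351 bases with Prdx2 on the other strand, which had 7086 counts over all libraries, and Jun shares 689 bases with Junos on the other strand, which is not analysed here. The strand setting of the counting is not stated, so reads within the shared bases cannot be assigned with certainty.

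Ier2 encodes a small nuclear regulator induced with the early genes (chromosome 8, 84661331 to 84662852). It had 33.7 and 24.2 CPM in KO DI libraries, against 18.5 and 10.2 CPM in WT DI libraries. The groups did not overlap, and KO DI cells were higher by 1.03 ± 0.30 with edgeR adjusted p = 0.0285. The call was lost without KO DI replicate 1 (edgeR adjusted p = 0.159) or WT DI replicate 2 (log2 difference 0.63, edgeR adjusted p = 0.194) and in a fit of the DI libraries alone (0.0571). The untreated levels were 33.2 and 27.2 CPM in KO and 23.8 and 22.7 CPM in WT libraries, a difference of 0.38 ± 0.29 that did not pass. WT DI lay below WT untreated by 0.72 ± 0.30 on the log2 scale without passing (edgeR adjusted p = 0.121), and passed without WT DI replicate 1 (0.0444). In knockout cells the DI effect was -0.06 ± 0.29.

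Between KO DI and WT DI cells, Fosb, Ier2 and Nr4a3 were higher in knockout (3 of 10) and 0 were lower, where 11.4% of all tested genes were higher and 9.74% lower. By libraries that did not overlap, 6 were higher (these 3 with Egr1, Fos and Nr4a2) and 0 lower, where 30.1% and 30.5% of all tested genes were. At an unadjusted p under 0.05, 5 of the 10 differed, where 36.0% of all tested genes did. DESeq2 called 4 of the 10 higher and 0 lower, and over all genes 1365 higher and 1067 lower. Between untreated KO and WT cells edgeR called 0 of the 10, with 2 at an unadjusted p under 0.05, as were 10.6% of all tested genes, and 0 called by DESeq2. By edgeR adjusted p, 0.0812% of all tested genes were higher and 0.524% lower, 0.605% in all. By libraries that did not overlap, 5 were higher in KO untreated (Fosb, Ier2, Junb, Nr4a1 and Nr4a2) and 2 lower (Egr2 and Jun), where 21.8% and 21.7% of all tested genes were. For Fosb, Ier2 and Nr4a2 the knockout libraries lay above the wild-type ones with and without DI. The untreated differences were 0.18 ± 0.47, 0.38 ± 0.29 and 0.93 ± 0.29 in that order, and none passed (edgeR adjusted p = 0.945, 0.72 and 0.213). For Fosb the difference with DI was 3.01 ± 0.55. The DI comparisons and the genotype comparisons share libraries, so their values are given side by side and not as independent evidence. The stromal marker sum was 44.8 to 45.9 CPM in KO DI and 108 to 119 CPM in WT DI libraries, and its part in these differences was not tested.

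The replicates stood apart for several of these genes in DI-treated cells. Replicate 1 exceeded replicate 2 by over 1.5-fold for 4 of the 10 genes in KO DI (Nr4a3, Egr2, Fos and Fosb), with 0 the other way, where 11.7% and 11.3% of all tested genes did so. In WT DI, 4 genes were higher in replicate 1 by that margin (Nr4a1, Egr1, Junb and Ier2) and 1 in replicate 2 (Fosb), beside 10.8% and 13% of all tested genes. In KO untreated cells 1 of the 10 differed by that margin and in WT untreated cells 2 did, Nr4a3 in each and also Fos in WT untreated cells. Replicate 2 was the higher in each case. By that margin it was higher for 8.4% of all tested genes in KO untreated and 11.7% in WT untreated cells, and replicate 1 for 7.49% and 7.99%. The median absolute log2 difference between replicates of the 10 genes was 0.47 in KO DI, 0.61 in WT DI, 0.23 in KO untreated and 0.19 in WT untreated libraries, beside 0.31, 0.31, 0.23 and 0.28 for all tested genes. In KO DI the fold between replicates was 2.83 for Egr2 and 2.46 for Fos, whereas Nr4a1, Egr1 and Junb differed by at most 1.07-fold. The share of mitochondrial transcripts was 1.02% in KO DI replicate 1 and 1.54% in replicate 2, and its part in the spread was not tested.

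**Figure D3:**
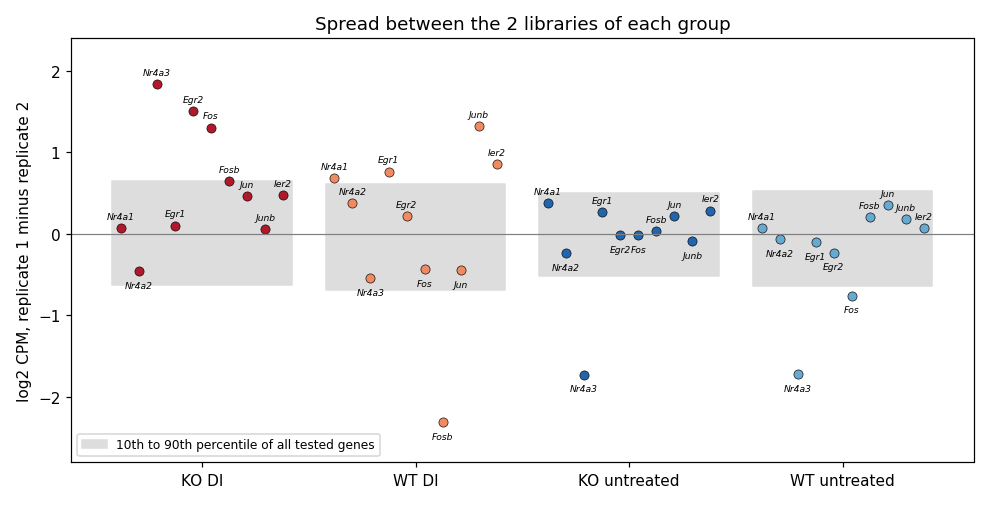
Log2 CPM (prior count 2) of replicate 1 minus replicate 2 (vertical axis) for the 10 genes in each group, with grey bands from the 10th to the 90th percentile of all 11079 tested genes. In KO DI Nr4a3, Egr2 and Fos stand above the band at 1.83, 1.5 and 1.30, and in WT DI Fosb stands below it at -2.31.

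Relatives and regulators of these genes were read from 4 lists of 65 genes, of which 63 were tested. With DI 10 rose and 2 fell in knockout cells, or 15.9% and 3.17% of them, and 9 rose and 5 fell in wild-type cells, or 14.3% and 7.94%, beside the shares of all tested genes given above. In the test of the difference between the responses 1 was higher and 2 were lower in knockout, where 4.96% and 2.59% of all tested genes were. In KO DI against WT DI cells 8 were higher and 6 lower, or 12.7% and 9.52% of them, where 11.4% and 9.74% of all tested genes were. Fosl1 was among the lower ones, at -3.38 ± 0.33 (edgeR adjusted p = 3.08e-05). Between untreated KO and WT cells edgeR called 0 of the 63, with 9 at an unadjusted p under 0.05, where 10.6% of all tested genes were, and DESeq2 called 2 higher and 2 lower.

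Of 13 other AP-1, ATF and MAF genes, 2 rose and 1 fell in knockout and 3 rose and 1 fell in wild-type cells. Among all tested genes 4.49% rose and 4.0% fell in knockout, and 6.51% rose and 8.68% fell in wild-type cells. Fosl1, whose product FRA-1 is a FOS-family AP-1 subunit induced after the early wave, averaged 2.58 ± 0.93 CPM in KO DI and 0.588 ± 0.089 CPM in KO untreated cells (SD, n = 2 each). It averaged 27.0 ± 3.56 CPM in WT DI and 1.14 ± 0.24 CPM in WT untreated cells. It rose by 2.09 ± 0.48 in knockout (edgeR adjusted p = 0.0216) and by 4.57 ± 0.35 in wild type (8.86e-06), and the difference of -2.49 ± 0.67 was called (0.0428). These changes start from few counts, 9 over both KO untreated and 30 over both WT untreated libraries. Within the FOS family Fosl1 was thus higher with DI in wild-type cells where Fosb was lower. Maff and Mafg encode small MAF proteins, which pair with NRF2. Maff rose by 1.92 ± 0.33 in knockout and 1.82 ± 0.30 in wild type (edgeR adjusted p = 0.00769 and 0.00165). Mafg rose in wild type by 1.26 ± 0.24 (0.00442) and was at 0.29 ± 0.24 in knockout (0.468). Its difference between the responses, -0.97 ± 0.33, did not pass (edgeR adjusted p = 0.0959). Maf, a large MAF factor of resident-type macrophages, fell by 1.11 ± 0.30 in knockout and by 2.29 ± 0.31 in wild type (0.0417 and 0.000484).

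Of 11 tested other early transcription factor genes, 3 rose and 0 fell in knockout and 2 rose and 1 fell in wild-type cells. The shares of all tested genes were 4.49% and 4.0% in knockout, and 6.51% and 8.68% in wild-type cells. Myc, a growth regulator, rose by 1.23 ± 0.23 in knockout and by 1.44 ± 0.23 in wild type (edgeR adjusted p = 0.0104 and 0.00129). Klf4, a macrophage polarisation factor, averaged 335 ± 10.9 CPM in KO DI and 87.3 ± 1.2 CPM in KO untreated cells, and rose by 1.94 ± 0.31 (0.00545). In wild-type cells Klf4 differed by 0.41 ± 0.30 (0.39), and the difference between the responses had edgeR adjusted p = 0.0505, while DESeq2 called it (0.0115). Bhlhe40, a transcriptional repressor, rose by 1.43 ± 0.28 in knockout (0.0121) and was at 0.59 ± 0.26 in wild type (0.136). Its difference between the responses, 0.84 ± 0.38, did not pass (edgeR adjusted p = 0.18). It averaged 6.42 CPM in KO untreated and 17.25 CPM in KO DI, beside 15.55 CPM in WT untreated and 23.44 CPM in WT DI cells. Klf2, an anti-inflammatory factor, fell by 1.19 ± 0.24 in wild type (0.00605) and was at -0.75 ± 0.24 in knockout (0.0697). Its difference between the responses, 0.44 ± 0.33, did not pass (edgeR adjusted p = 0.42).

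Of 22 tested feedback genes, 5 rose and 0 fell in knockout and 4 rose and 3 fell in wild-type cells. Again the shares of all tested genes were 4.49% and 4.0% in knockout, and 6.51% and 8.68% in wild-type cells. Dusp1 and Dusp5 encode phosphatases that switch off MAP kinases. Dusp1 rose by 1.18 ± 0.21 in knockout and 1.34 ± 0.21 in wild type (edgeR adjusted p = 0.00811 and 0.00129), and Dusp5 by 1.03 ± 0.25 and 1.76 ± 0.25 (0.0254 and 0.000682). Zfp36l1 and Zfp36 encode proteins that bind AU-rich elements and speed mRNA decay. Zfp36l1 averaged 946 ± 293 CPM in KO DI and 1537 ± 198 CPM in KO untreated cells, and 138 ± 23.5 CPM in WT DI and 1234 ± 48.2 CPM in WT untreated cells. It fell by 3.17 ± 0.28 in wild type (2.09e-05), was at -0.70 ± 0.25 in knockout (0.106), and the difference of 2.47 ± 0.36 was called (0.00286). For Zfp36 the difference between the responses was -1.26 ± 0.31 (0.0284), with -0.76 ± 0.22 in knockout and 0.51 ± 0.22 in wild type, neither of which passed. The knockout change of Zfp36 passed in DESeq2 (adjusted p = 0.0199). Trib1, a pseudokinase that marks proteins for degradation, fell by 0.89 ± 0.22 in wild type (0.0188) and was at 0.19 ± 0.22 in knockout (0.619). Its difference between the responses, 1.08 ± 0.31, did not pass (edgeR adjusted p = 0.0547), while DESeq2 called it (adjusted p = 0.0216).

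**Figure D4:**
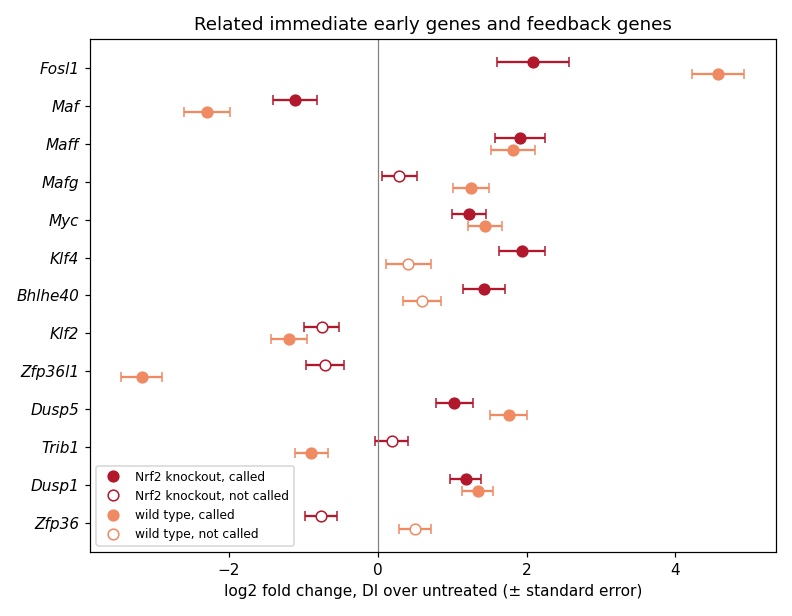
Log2 fold change of DI over untreated cells (horizontal axis, bars for the standard error) for the 13 related genes named by rule outside the upstream regulators, knockout above wild type in each row, with filled points for calls. Fosl1, Maff, Myc, Dusp5 and Dusp1 are right of 0 and filled in both genotypes, and Zfp36l1 is at -0.70 in knockout and -3.17 in wild type.

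Of 17 upstream regulators, 1 was called with DI in knockout and 0 in wild-type cells, where 8.48% and 15.2% of all tested genes were. It was the kinase gene Rps6ka1, which fell by 1.58 ± 0.35 (edgeR adjusted p = 0.0196). The SRF coactivator gene Mrtfb was at 0.96 ± 0.30 (0.0644) and the MAP kinase kinase gene Map2k2 at 1.02 ± 0.32 (0.0691) in knockout, neither of which passed, although DESeq2 called both (adjusted p = 0.0289 for Mrtfb and 0.0252 for Map2k2). Map2k1 was lower in KO DI than in WT DI cells by 0.82 ± 0.25 on the log2 scale (0.0344). In that comparison 0 of the 17 were called higher and 1 lower, where 11.4% and 9.74% of all tested genes were.

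Several of these calls were lost when 1 library was left out, which leaves its group with 1. Without KO untreated replicate 1 the knockout log2 changes of Fosl1, Myc, Klf4, Bhlhe40, Dusp5 and Dusp1 were 1.97, 1.22, 1.93, 1.48, 0.89 and 1.2. Without replicate 2 they were 2.28, 1.24, 1.96, 1.38, 1.2 and 1.17. With all libraries they were 2.09, 1.23, 1.94, 1.43, 1.03 and 1.18. In knockout cells, Fosl1, Myc, Klf4, Bhlhe40, Dusp5 and Dusp1 lost their calls without KO untreated replicate 1 (edgeR adjusted p = 0.133, 0.0973, 0.0685, 0.087, 0.22 and 0.0876) and without replicate 2 (0.14, 0.0973, 0.0586, 0.108, 0.111 and 0.0916), and Maff did without replicate 2 (0.0973). Fosl1 lost it without KO DI replicate 2 (0.0879) and in a fit of the knockout libraries alone (0.0598), Bhlhe40 and Dusp5 without KO DI replicate 1 (0.064 and 0.138), and Rps6ka1 without KO untreated replicate 1 (0.221), KO DI replicate 1 (0.156) or KO DI replicate 2 (0.0516). The knockout fall of Maf was lost without KO untreated replicates 1 and 2 (0.258 and 0.109), KO DI replicate 1 (0.248) or WT untreated replicates 1 and 2 (0.0596 and 0.0591), with the replicate block (0.0513) and with the A-rich trend removed (0.0637). Trib1 lost its wild-type call without WT untreated replicates 1 and 2 (0.0606 and 0.0781) or WT DI replicate 2 (0.115). The differences in response lost theirs without 1 of 7 libraries for Fosl1 (0.0564 to 0.255) and of 6 for Zfp36 (0.0552 to 0.11), with the trend removed at 0.0678 and 0.0672, while that of Zfp36l1 held in every setting tried. Map2k1 lost its call without KO DI replicate 1 (0.217), WT DI replicates 1 and 2 (0.0527 and 0.129) or KO untreated replicates 1 and 2 (0.0521 and 0.0567), in a fit of the DI libraries alone (0.0795) and with the trend removed (0.132).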

How the data were processed

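Poly(A) RNA of 8 libraries was read near transcript 3′ ends after priming with an oligo-dT primer of 15 T and 12 PCR cycles, per the labels' protocols, which name no molecular identifier. The authors deposited whole-number read counts, with no normalization, for each Ensembl gene. Tools named in the submitters' processing notes are STAR, HTSeq and DESeq2, with the build mm10 and no version. Identifiers were matched to GENCODE M21 names (21745 of 22165 genes, while the remaining 420 held 0.129% of counts). Here filterByExpr (minimum count 10) left 11079 genes, TMM scaled the libraries, and edgeR 4.0.16 (R 4.3.3) fitted all 8 libraries with 1 mean per group in 5 comparisons. Standard errors are the absolute log2 fold change over the square root of the F statistic. The script was tested on simulated data. DESeq2 1.42.0 was an alternative. Replicates differed beyond counting error (chi-square per degree of freedom 15.2 to 45.3).

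The 10 genes, the lists and the tests were chosen with earlier results of these data known. Named genes were the 10, up to 4 per related list by smallest p over the 5 comparisons, every list gene called in the difference between responses, and Nfe2l2. In addition, genes with a symbol and at least 10 CPM in a group were ranked by correlation with each of the 10.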

Additional observations from a re-analysis of the deposited data

Results flagged for a closer look

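The DI response differed between the genotypes, by the test of the difference itself, for 4 of the 73 tested members and related genes. That is 5.48% of them, beside 7.55% of all tested genes. For Fosb it was higher in knockout by 2.83 on the log2 scale, and for Zfp36l1 by 2.47. For Fosl1 the difference was -2.49 and for Zfp36 -1.26, so the response was lower in knockout. Fosl1 had only 9 counts over both KO untreated libraries. The edgeR adjusted p-values were 0.0357 for Fosb, 0.00286 for Zfp36l1, 0.0428 for Fosl1 and 0.0284 for Zfp36. Groups of 2 libraries are too small to test for a library far from the others.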

How the results depend on the processing

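Over 783 pairs of a member result and an alternative, 734 kept the direction or, where neither value was called, the lack of a call. Of the others 33 lost a call, 16 gained one and 0 turned a call round, while 24 changed sign without a call. Most pairs belong to results not called in the main fit, which cannot lose a call. All 33 losses fall on the fewer results that were called, so 734 of 783 does not measure how stable the calls were. With no filter on low counts, genes called rose to 1029 higher and 668 lower for DI in knockout, 1106 and 491 for the difference in response, and 72 and 325 for untreated knockout against wild type, for which DESeq2 gave 36 and 155 and a fit of those groups alone 14 higher. Of the 10 members, testing without the filter gave 2 higher with DI in knockout (Egr1 and Egr2) and 3 lower with DI in wild type (Nr4a1, Nr4a3 and Fosb). It gave 3 higher in the difference (Nr4a3, Fos and Fosb) and 1 higher untreated (Nr4a1). Nr4a3 held 1 count over both WT DI libraries. A fit of the compared groups alone gave 0 lower with DI in wild type and 1 higher in KO DI against WT DI. With the A-rich trend removed, an alternative chosen after seeing the data, 0 rose and 1 fell with DI in wild type and 0 were called in the difference. Of the 63 related genes, no filter gave 18 higher and 4 lower with DI in knockout, 7 and 4 in the difference, and 3 and 2 untreated. DESeq2 gave 5 and 4 in the difference and 2 and 2 untreated. The trend removed gave 1 lower with DI in knockout, and 3 higher and 0 lower in the difference. The cause was not tested.

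Leaving out 1 library gave 29 to 598 higher and 74 to 491 lower genes for DI in knockout, 290 to 745 and 506 to 1001 for DI in wild type, 137 to 609 and 101 to 324 for the difference, 1 to 16 and 10 to 65 untreated, and 654 to 1203 and 520 to 1021 in KO DI against WT DI. Of the members it gave 0 to 2 higher and 1 lower for DI in knockout, 0 to 1 and 0 to 3 in wild type, 0 to 2 higher in the difference, and 1 to 4 higher and 0 to 1 lower in KO DI against WT DI. Of the related genes it gave 0 to 12 and 0 to 3, 6 to 10 and 3 to 5, 1 to 3 and 0 to 1, 0 and 0, and 6 to 10 and 2 to 7, in the order of comparisons used for all genes. The fewest calls for DI in knockout came without KO untreated replicate 1 (29 higher) and replicate 2 (74 lower), and for DI in wild type without WT untreated replicate 2 (290 higher) and WT DI replicate 1 (506 lower). A group left with 1 library is assumed to vary like the others.

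Libraries with the same number did not deviate together: the correlation of replicate differences between groups was -0.0799 to 0.156, and the labels state no pairing. With the replicate block the related genes gave 1 lower with DI in knockout and 2 higher in the difference, and Maf lost its knockout call. Klf4 gained a call in the difference (edgeR adjusted p = 0.0332) and Mrtfb one with DI in knockout (0.0384). The block changed no call of the 10 members.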

Other observations

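The genes whose log2 CPM followed the members most closely over the 8 libraries were ranked by Pearson correlation among 7934 candidates. For Nr4a1 these were Sulf2 (r = 0.98), Ifitm2 (0.975) and H1f0 (0.974), and for Egr2 they were Baiap2 (0.969), Zfp874b (0.966) and Dclre1b (0.964). For Fosb they were Ulbp1 (0.995), Mrc1 (0.981) and Zswim9 (0.978), and for Fos Pip4k2a (0.959), Btbd1 (0.943) and Ociad1 (0.941). For Egr1 they were Epg5 (0.982), Nbeal1 (0.978) and Kdsr (0.975), and for Ier2 Lbr (0.978), Dennd1c (0.967) and Gsap (0.962). Nr4a2 was followed by Tmem260 (0.957), Lmo4 (0.944) and Ttc7 (0.938), and Junb by Ppp6r3 (0.97), Bsdc1 (0.963) and Ppp6r2 (0.948). Jun was followed by Atxn2l (0.927), Alg5 (0.925) and Tmem161a (0.916). Nr4a3, with few counts in every library, was followed by Stim1 (0.982), Zfp958 (0.967) and Hip1 (0.946). Each value is the highest of many, over libraries that fall into 4 groups, and describes the order only.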
